A study of Mus musculus with 4 samples.

Results

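The 8 genes described here encode the subunits of the V1 sector of the vacuolar proton pump (V-ATPase) that make up the widely expressed form of that sector: Atp6v1a, Atp6v1b2, Atp6v1c1, Atp6v1d, Atp6v1e1, Atp6v1f, Atp6v1g1 and Atp6v1h. They were chosen by symbol, as probe sets annotated with that 1 gene and no other, and where a gene had more than 1 probe set the one with the highest mean was used. All 8 were found among the 19938 genes with such a probe set. The cells were RAW 264.7, a mouse macrophage-like line able to form osteoclasts, carrying a control vector or one expressing miR-155. RNA was taken from unstimulated cells, listed at 0 h, and from cells given RANKL and M-CSF for 72 h. RANKL is the ligand that drives osteoclast formation, and M-CSF is a macrophage growth factor. No array holds cells kept for 72 h without the cytokines, so cytokines and time in culture cannot be told apart. A dose of 20 ng/ml is stated, and whether it holds for each cytokine is unclear. The series design calls the control cells wild-type, whereas the sample descriptions give them a control vector. The labels do not say whether transfected cells were a pool or a clone. Each of the 4 groups has 1 Affymetrix Mouse Gene 1.0 ST array, so no difference below has a replicate check.

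The V-ATPase is a rotary machine that spends ATP to move protons across membranes. Its V1 sector lies in the cytosol: subunits A and B form the ring that binds and splits ATP, D and F form the turning central shaft, and C, E, G and H form the outer stalks and the connection to the membrane sector, V0, which carries the protons. In every cell the pump acidifies endosomes and lysosomes, and in osteoclasts it is also placed in the ruffled border, where it acidifies the space in which bone mineral is dissolved. Several V1 subunits have further isoforms, encoded by other genes, that are known mainly from kidney, epididymis, testis or brain.

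RefSeq windows (build GRCm38.p6) covering the 250 bases before the transcription start were held for 4 of the 8 genes. All 4 windows are shown, and 1 of them holds the palindrome that MiT/TFE factors, regulators of lysosomal genes, are known to bind. Each is written 5′ to 3′ on the gene's strand and ends at the base before the start. Capitals mark matches to any of 5 motifs searched on both strands: CACGTG (the E-box), TCACGTGA (the E-box with its flanks, which therefore always contains the first), TGANTCA (AP-1), TGACGTCA (CRE) and GGGCGG (GC box). The windows are chr16:44139260-44139509 on the minus strand for Atp6v1a, chr12:78861639-78861888 on the minus strand for Atp6v1d, chr6:120822699-120822948 on the minus strand for Atp6v1e1 and chr6:29467533-29467782 on the plus strand for Atp6v1f.
Atp6v1a: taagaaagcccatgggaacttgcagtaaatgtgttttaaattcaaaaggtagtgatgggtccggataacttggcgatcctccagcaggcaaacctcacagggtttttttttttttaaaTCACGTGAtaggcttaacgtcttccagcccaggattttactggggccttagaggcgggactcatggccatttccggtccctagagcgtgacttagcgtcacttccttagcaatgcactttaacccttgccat
Atp6v1d: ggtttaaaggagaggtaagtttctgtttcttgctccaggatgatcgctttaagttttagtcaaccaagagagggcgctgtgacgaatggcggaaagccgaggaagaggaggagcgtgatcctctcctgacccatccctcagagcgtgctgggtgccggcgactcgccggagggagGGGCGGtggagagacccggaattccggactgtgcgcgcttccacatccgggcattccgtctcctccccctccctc
Atp6v1e1: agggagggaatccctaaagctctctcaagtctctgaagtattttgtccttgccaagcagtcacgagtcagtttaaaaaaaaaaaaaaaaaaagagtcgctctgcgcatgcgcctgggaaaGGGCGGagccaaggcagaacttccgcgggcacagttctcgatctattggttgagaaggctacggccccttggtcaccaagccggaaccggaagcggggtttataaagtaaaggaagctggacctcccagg
Atp6v1f: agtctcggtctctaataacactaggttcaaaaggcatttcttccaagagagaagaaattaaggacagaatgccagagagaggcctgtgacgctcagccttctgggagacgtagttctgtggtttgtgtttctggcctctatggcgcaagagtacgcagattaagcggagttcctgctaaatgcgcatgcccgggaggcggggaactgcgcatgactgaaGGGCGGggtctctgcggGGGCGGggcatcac

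The catalytic subunit gene Atp6v1a had TCACGTGA at positions -132 to -125 from the start, a motif present in 0.785% of the 32851 windows of the same length; its inner CACGTG was present in 6.02%. The other 3 windows held neither. GGGCGG stood in 3 of the 4, those of Atp6v1d, Atp6v1e1 and Atp6v1f, beside 32.7% of all windows. TGANTCA (6.75% of all windows) and TGACGTCA (1.55%) were in none of the 4. A match describes letters in these windows and is neither a bound site nor a cause.

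The mouse miR-155 sequence is shown for reference, and the insert of the vector itself was not read on these arrays. The mature mouse miR-155-5p, with its seed (bases 2 to 8) in capitals, reads as follows in RefSeq.
mmu-miR-155-5p: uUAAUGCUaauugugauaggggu
The arrays do not read this mature form. The Mir155 probe set lay between 3.58 and 3.73 on the log2 scale on the 4 arrays, below the floor defined next, so the values give no check of the vector.

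A gene counted as above the floor when its highest value exceeded 4.25 (log2), the 95th percentile of 1210 olfactory and vomeronasal receptor probe sets; 13545 genes did, including all 8 V1 genes. The 95th percentile of these receptors' absolute differences is called the noise reference below. In log2 units it was 0.48 for stimulation with the control vector, 0.41 for stimulation with miR-155, 0.37 for the vectors without stimulation and 0.47 for them with stimulation. It describes dim probe sets, and it is no replicate error. The stimulated control array stood apart, with Pearson correlations of 0.908 to 0.937 with the others against 0.982 to 0.989 among the rest; genes are not independent replicates. The labelled cell states were checked on markers. The summed linear level of 10 osteoclast markers, such as Ctsk and Acp5, was 839 and 32602 on the control arrays and 730 and 10460 on the miR-155 arrays, unstimulated first. That of 10 macrophage markers was 33730 and 11725, and 32289 and 28295. In control cells 8 of these 10 were lower with stimulation, with log2 differences from -6.95 (Cybb) and -6.02 (Lyz2) to -1.73 (Msr1), while Csf1r (-0.36) and Cd68 (0.29) stayed within the noise reference. Of 7 T and B cell markers 3 lay above the floor on each array and the sum stayed between 114 and 125. The sum of 6 fibroblast and osteoblast markers stayed between 188 and 208, and that of 8 granulocyte and mast cell markers between 109 and 115, with 1 or 2 above the floor per array.

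Subunit A, the ATP-splitting subunit, is encoded by Atp6v1a. Its log2 expression was 10.71 in unstimulated and 12.36 in stimulated control cells, and 9.88 in unstimulated and 10.89 in stimulated miR-155 cells. The stimulated control array was the highest, and the stimulated miR-155 array lay only 0.18 above the unstimulated control array, inside the noise reference of 0.42 for that pair. Atp6v1a was thus 3.14-fold higher with stimulation in control and 2.02-fold higher in miR-155 cells. Atp6v1b2 encodes the B subunit of most cells and of osteoclasts, which alternates with A in the ring. It stood at 11.30 and 13.08 in control cells and at 10.80 and 12.33 in miR-155 cells. Both stimulated arrays were above both unstimulated ones. The folds with stimulation were 3.42 and 2.88, the closest pair among the 8 genes.

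Atp6v1d encodes subunit D, the main part of the central shaft. Its values were 8.34 and 11.46 in control cells and 7.60 and 9.52 in miR-155 cells, unstimulated first. It had the largest difference with stimulation of the 8 genes with either vector, 8.71-fold with the control vector and 3.78-fold with miR-155, ranks 73 and 40 among all genes above the floor. Atp6v1f encodes F, its partner in the shaft. It stood at 10.51 and 12.28 in control cells and at 10.46 and 10.97 in miR-155 cells. The unstimulated arrays differed by only -0.05, and the response was 3.41-fold against 1.43-fold. Subunits D and F, which bind each other in the complex, therefore lay far apart in size of response.

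Atp6v1e1 and Atp6v1g1 encode E and G, which pair with each other to form the outer stalks. Atp6v1e1 was at 9.49 and 11.56 in control cells and at 9.33 and 10.27 in miR-155 cells. Atp6v1g1 was at 9.52 and 11.58, and at 9.17 and 10.11. Their responses matched closely: 4.18-fold each in control cells and 1.93-fold and 1.92-fold in miR-155 cells. Atp6v1c1 encodes C, which links the stalks to V0 and leaves the complex when the pump comes apart. Its values were 10.46 and 11.97 in control cells, and 9.80 and 10.42 in miR-155 cells. It was the only one of the 8 genes whose stimulated miR-155 value did not exceed the unstimulated control value (difference -0.04). That difference lay inside the noise reference of 0.42 for the pair. Atp6v1h encodes H, which couples ATP splitting to rotation and holds free V1 inactive. It stood at 8.47 and 10.32 in control cells and at 8.30 and 8.81 in miR-155 cells, 3.59-fold and 1.42-fold higher with stimulation. As the plot of levels shows, H and F had the smallest differences between the miR-155 arrays.

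**Figure D1:**
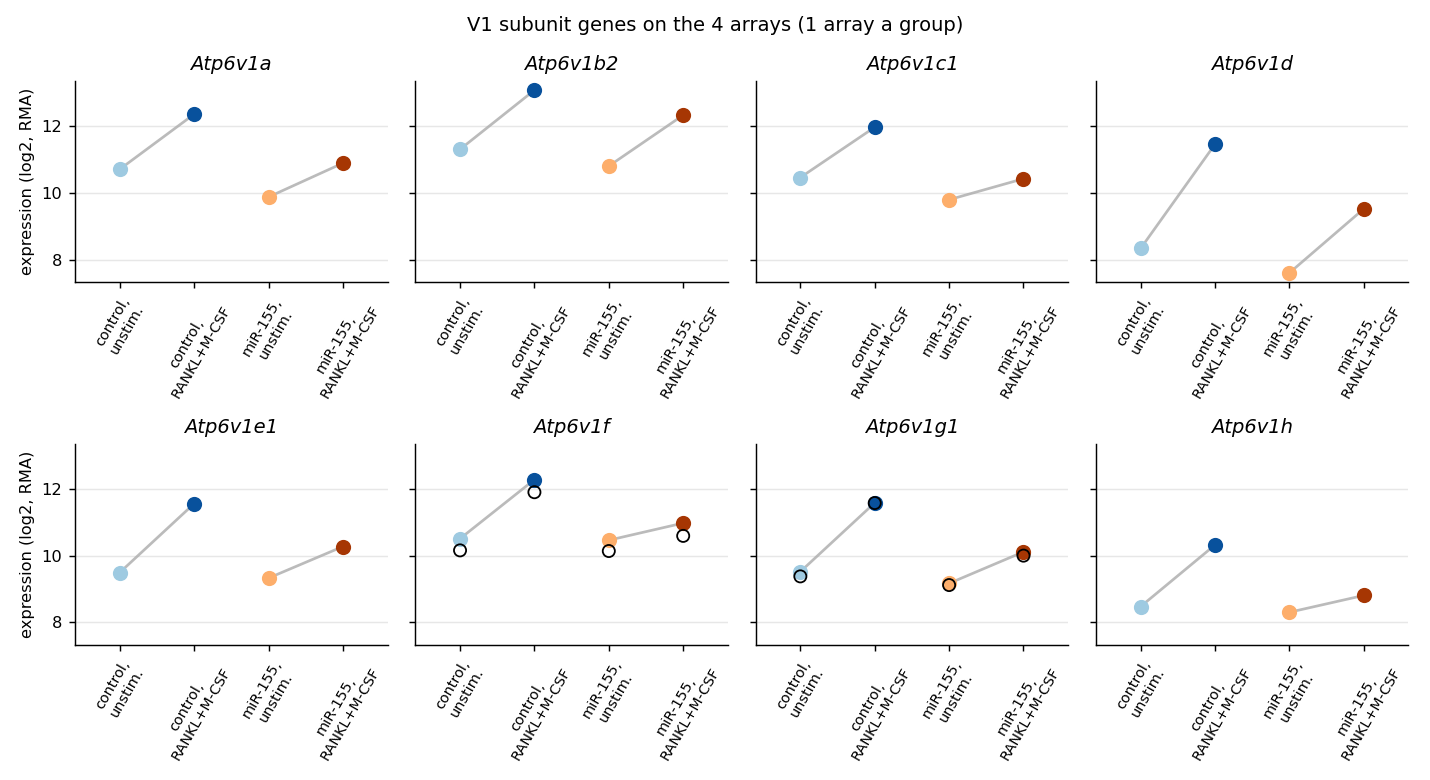
Expression (log2, vertical axis) of the 8 V1 subunit genes on the 4 arrays (horizontal axis), 1 array a group; grey lines join the arrays of a vector, and open circles are the second probe sets of Atp6v1f and Atp6v1g1. Every gene is highest in stimulated control cells and lowest in unstimulated miR-155 cells. For Atp6v1e1, Atp6v1f, Atp6v1g1 and Atp6v1h the gap between the unstimulated arrays lies within the noise reference.

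All 8 genes were highest on the stimulated control array and lowest on the unstimulated miR-155 array, an arrangement that 13.1% of all genes above the floor showed. For 7 of the 8, all but Atp6v1c1, the full order was control stimulated, miR-155 stimulated, control unstimulated, miR-155 unstimulated, which held for 7.15% of all genes. Parts of this order rest on gaps inside the noise reference. Between the unstimulated arrays these were Atp6v1g1 (-0.35), Atp6v1h and Atp6v1e1 (-0.17 each) and Atp6v1f (-0.05). Between stimulated miR-155 and unstimulated control cells they were Atp6v1h (0.33), Atp6v1a (0.18) and the reversed Atp6v1c1 (-0.04). Atp6v1f and Atp6v1g1 each had a second probe set. In the 4 comparisons between arrays it gave differences within 0.13 (log2) of the first, at most 0.20 for the difference of the responses. Such pairs share RNA and array and so repeat only the probe reading. Whether any probe set also reads similar copies of its gene was not tested.

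In control cells the genes of the whole sector were higher after RANKL and M-CSF. All 8 genes were more than 1.5-fold higher, beside 12.4% of all genes, and all 8 were more than 2-fold higher, beside 5.74%. Their median difference was 1.81 (log2), or 3.50-fold, while the median of all genes was -0.02. The smallest was Atp6v1c1 (1.51) and the largest Atp6v1d (3.12); the other 6 lay between 1.65 and 2.07. The 10 osteoclast markers had a median of 4.91 in the same comparison and the 10 macrophage markers one of -3.70, with 8 of them more than 1.5-fold lower; the part of this change of cell state in the V1 values was not tested. RNA of a whole culture was measured, so more cells of one kind and more RNA per cell cannot be told apart.

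In miR-155 cells the differences with stimulation had the same direction and were smaller. All 8 genes were higher by more than the noise reference of 0.41, beside 7.13% of all genes. Of these, 6 were more than 1.5-fold higher (3.43% of all genes), and 3, Atp6v1d, Atp6v1b2 and Atp6v1a, more than 2-fold (1.15%). The 2 below 1.5-fold were Atp6v1f (0.51) and Atp6v1h (0.50). The median was 0.94, or 1.92-fold. This comparison does not use the stimulated control array. Here the osteoclast markers had a median of 3.12 and the macrophage markers one of -0.27, with none of the latter past 1.5-fold. Higher in both vectors by more than 1.5-fold were 6 of the 8 V1 genes and 2.31% of all genes.

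**Figure D2:**
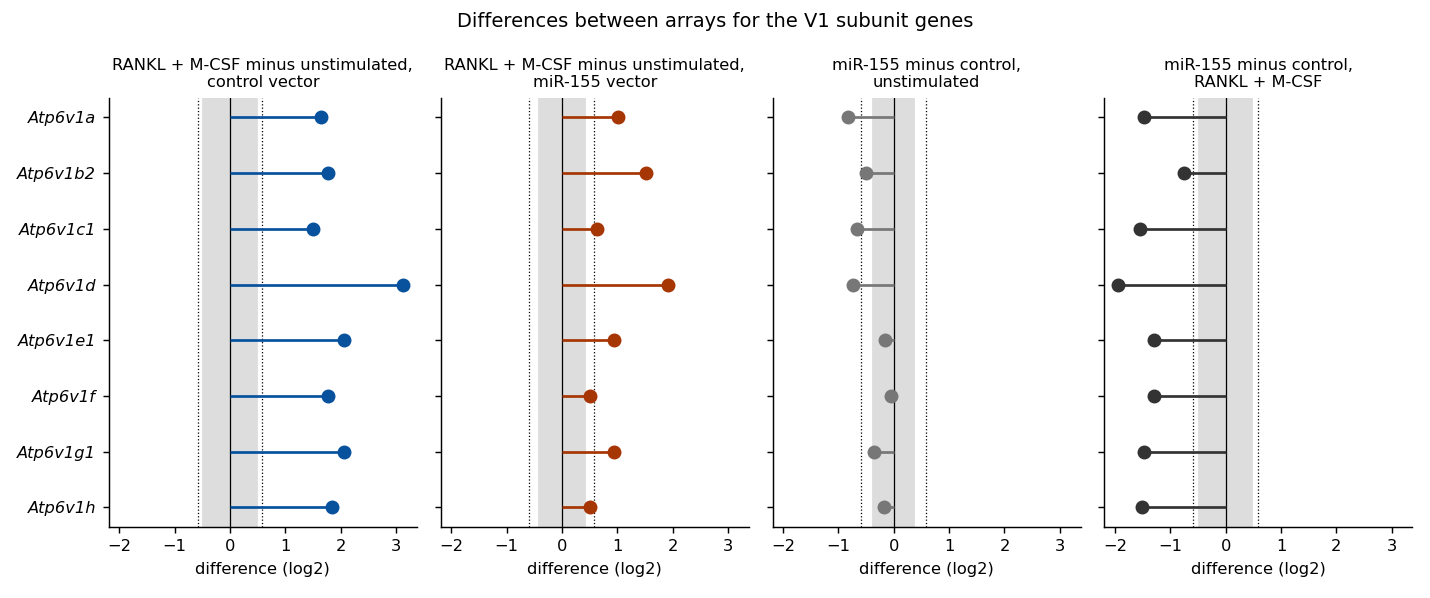
Differences (log2, horizontal axis) between pairs of arrays for each V1 subunit gene; the grey band is the noise reference and dotted lines mark 1.5-fold. With RANKL and M-CSF all 8 genes lie right of the band for both vectors, and with miR-155 all 8 lie left of it in stimulated cells but only 4 in unstimulated cells.

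The control and miR-155 responses, which rest on separate arrays, were compared gene by gene. The response was smaller in miR-155 cells for all 8 genes, by a median of -1.12 (log2), beside -0.03 for all genes. For 7 of the 8 the gap exceeded 1.5-fold, beside 13.9% of all genes. For 6 it exceeded the noise reference of this double difference, 0.64, beside 12.0% of all genes. The gap was largest for Atp6v1h (-1.34), Atp6v1f (-1.25) and Atp6v1d (-1.20), followed by Atp6v1e1 and Atp6v1g1 (-1.12 each). It was -0.88 for Atp6v1c1 and -0.64 for Atp6v1a, just inside the noise reference. Atp6v1b2 had the smallest gap, -0.25. As a share of the control response on the log2 scale, the miR-155 response was 86.1% for Atp6v1b2, 61.5% for Atp6v1a and Atp6v1d, 45.8% for Atp6v1e1 and Atp6v1g1, 41.7% for Atp6v1c1, 29.0% for Atp6v1f and 27.3% for Atp6v1h. The members of the ATP-binding ring and D thus had the largest shares, and F and H the smallest. A larger share did not always come with a smaller difference between the stimulated arrays, miR-155 minus control. That difference was -1.94 for Atp6v1d, -1.47 for Atp6v1a and -0.75 for Atp6v1b2. It was -1.30 for Atp6v1f and -1.51 for Atp6v1h. In the same double difference 8 of 10 osteoclast markers were more than 1.5-fold lower (median -1.80) and 8 of 10 macrophage markers more than 1.5-fold higher (median 3.43); their part in the V1 values was not tested. With 1 array a group this difference of responses has no test.

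**Figure D3:**
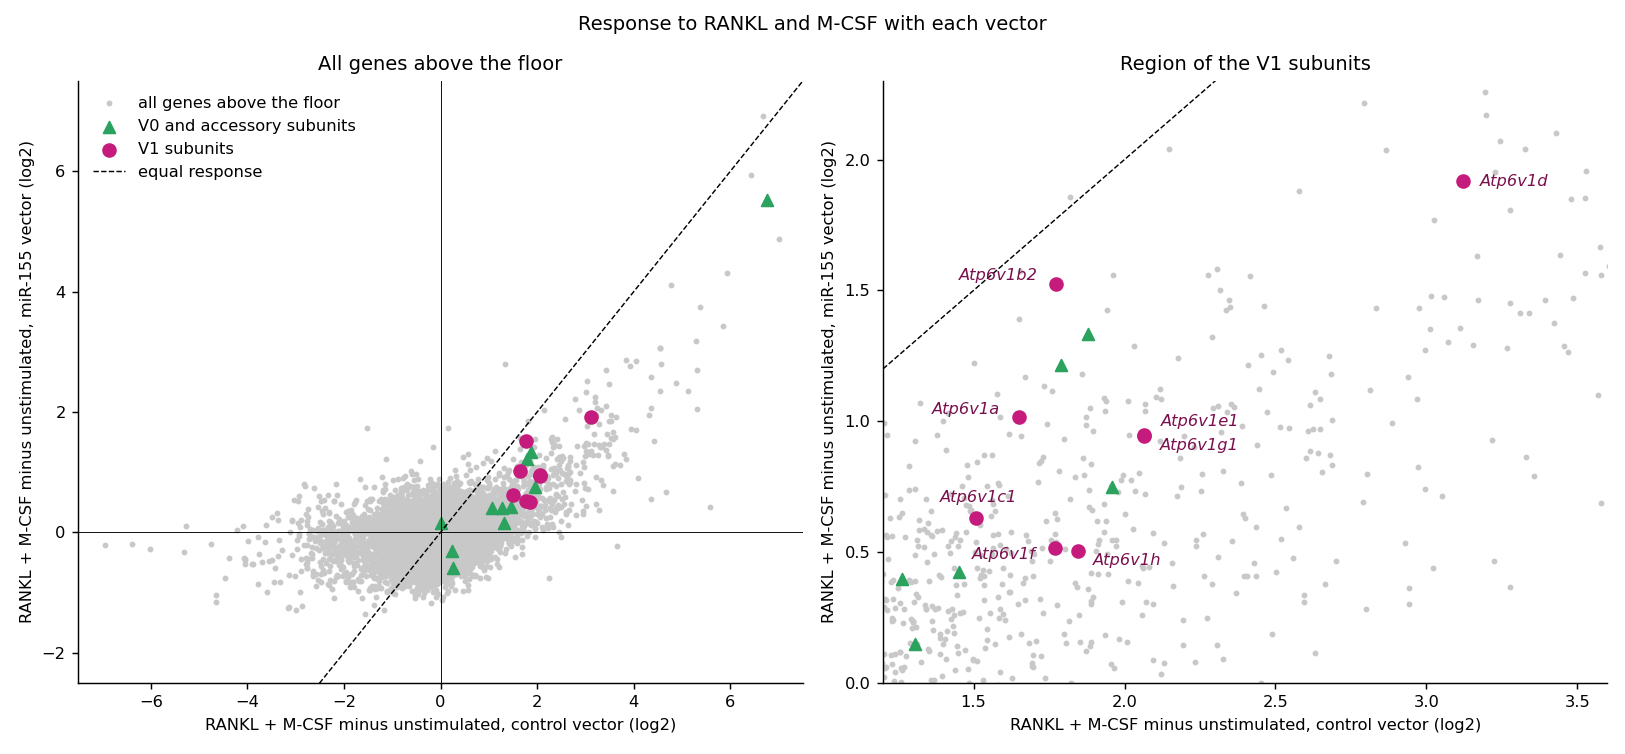
Response to RANKL and M-CSF (log2) with the control vector (horizontal) and the miR-155 vector (vertical) for all genes above the floor (grey), V0 and accessory genes (triangles) and the V1 subunit genes (circles); the right panel enlarges the region of the V1 genes. All 8 V1 genes lie below the dashed line of equal response, Atp6v1b2 nearest to it.

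Without stimulation, all 8 genes were lower in miR-155 than in control cells, but by little. The median was -0.43 (log2), beside -0.00 for all genes. Past the noise reference of 0.37 were 4 genes, Atp6v1a (-0.83), Atp6v1d (-0.73), Atp6v1c1 (-0.67) and Atp6v1b2 (-0.50), beside 9.49% of all genes lower by that much. The first 3 of them were more than 1.5-fold lower (1.78-fold, 1.66-fold and 1.59-fold), beside 3.15% of all genes. Atp6v1g1 (-0.35), Atp6v1h and Atp6v1e1 (-0.17 each) and Atp6v1f (-0.05) lay within the noise reference. Genes for the ring, D and C thus passed the noise reference before stimulation, and those for E, F, G and H did not. In the same pair of arrays the osteoclast markers had a median of -0.11 and the macrophage markers one of -0.07. Single markers differed more. Of the osteoclast markers 1 was more than 1.5-fold higher and 1 lower, with values from -2.45 to 0.68. Of the macrophage markers 2 were more than 1.5-fold lower and 0 higher. Their part in the V1 values was not tested.

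With stimulation, all 8 genes were more than 1.5-fold lower in miR-155 than in control cells, beside 13.6% of all genes, and 7 were more than 2-fold lower, beside 5.56%. The stimulated control array also enters the control response above, so both rest on it. The median was -1.47, or 2.77-fold lower, beside -0.03 for all genes. Atp6v1d was 3.83-fold lower, Atp6v1c1 2.92-fold and Atp6v1h 2.85-fold. Atp6v1b2 was the exception to 2-fold, at 1.68-fold lower. The values ran from -1.94 to -0.75, and 6 of the 8 lay between -1.54 and -1.29. Osteoclast markers had a median of -1.86 and macrophage markers one of 2.53 here, and their part in the V1 values was not tested.

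Set against unstimulated control cells, stimulated miR-155 cells had 4 V1 genes more than 1.5-fold higher, beside 2.83% of all genes: Atp6v1d (1.19), Atp6v1b2 (1.02), Atp6v1e1 (0.78) and Atp6v1g1 (0.59). Atp6v1f (0.47) passed the noise reference of 0.42, and Atp6v1h (0.33), Atp6v1a (0.18) and Atp6v1c1 (-0.04) did not. These arrays differ in both vector and stimulation.

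Tests came from an additive limma fit over the 4 arrays, in which the vectors stand in for repeats of the stimulation and the states for repeats of the vector. Its single residual degree of freedom is the disagreement between the vectors. The SEs and p-values of this fit therefore do not measure the spread of replicate cultures. After Benjamini-Hochberg adjustment over 13545 genes limma called 0 of the 8 V1 genes, with adjusted p-values of 0.629 to 0.647, and 0 genes in all (0%). All 8 had an unadjusted p under 0.05 by limma, beside 4.01% of all genes higher by that measure. The fitted effect was largest for Atp6v1d, 2.52 (SE 0.36), and was 1.65 (SE 0.20) for Atp6v1b2, whose responses were most alike, each higher in 2 of 2 vectors. Over the 7 alternative settings of limma these adjusted p-values ran from 0.278 to 0.719. The vector term of the same fit, added after the data were seen, was negative for all 8 genes, each lower in 2 of 2 states, with a median of -0.88 (log2). limma called 0 of the 8 genes for it, each with an adjusted p of 0.89 (0.851 to 0.944 over the alternatives), and 0 genes in all. An unadjusted p under 0.05 was found for 4 of the 8, Atp6v1a (-1.15, SE 0.25), Atp6v1c1 (-1.10, SE 0.29), Atp6v1d (-1.33, SE 0.36) and Atp6v1b2 (-0.62, SE 0.20), beside 2.71% of all genes lower by that measure.

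The genes of the other V1 isoforms were near background or little different between arrays. None of the 4 above the floor was more than 1.5-fold higher with stimulation in either vector, and their medians were 0.24 and 0.17. Atp6v1b1, the B isoform known from kidney, lay just above the floor on the control arrays (4.28 and 4.49) and below it on the miR-155 arrays (3.73 and 3.87), so no difference between the vectors is given for it. None of the other 3 was more than 1.5-fold lower or higher with miR-155 in either state. Atp6v1c2 lay between 4.37 and 4.64, and Atp6v1e2, the E isoform known from testis, between 4.17 and 4.58. Atp6v1g2, known from brain, lay between 5.82 and 6.07, differing with stimulation by -0.25 (control) and 0.21 (miR-155). Atp6v1g3 lay at 3.51 to 3.85 and never reached the floor.

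The membrane sector and its accessory genes were mostly higher with stimulation too. Unlike the list of 8 V1 genes, this list also holds further isoforms of the same subunit, so the counts are not like for like. Of 11 with a probe set, 8 were more than 1.5-fold higher with stimulation in control cells, with a median of 1.31, and 4 were in miR-155 cells, with 1 lower (Atp6v0e2) and a median of 0.40. Atp6v0d2, the osteoclast isoform of the V0 subunit that docks the central shaft, had differences of 6.75 and 5.52. Tcirg1, the a3 subunit of the osteoclast pump, had 1.88 and 1.33, Atp6ap2, an accessory subunit, 1.96 and 0.75, and Atp6v0e 1.79 and 1.22. The a2 subunit gene Atp6v0a2 (0.23 and -0.31) and Atp6v0a4 (0.01 and 0.16), known from kidney, stood within the noise reference. Atp6v0e2 was at 0.25 and -0.59. No other gene of the list fell short of 1.5-fold in control cells. Without stimulation the list had a median of -0.23 for miR-155 against control, and with stimulation -1.06, 7 of 11 lower by more than 1.5-fold.

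Genes for assembly and regulation of the pump had a median of 0.36 with stimulation in control cells, with 4 of 11 more than 1.5-fold higher and 1 lower, and of 0.15 in miR-155 cells, with 1 higher. The genes of the complex that rejoins V1 with V0 were split. Dmxl1 (2.03 and 1.29) and Wdr7 (1.29 and 0.15) were higher in control cells, Dmxl2 was the 1 lower gene (-0.75 and 0.33), and Rogdi was at -0.02 and -0.04. Of the TLDc protein family that binds V1, Tbc1d24 (1.67 and 0.57) and Oxr1 (0.78 and 0.43) were also higher. Ncoa7 of the same family was not (-0.28 and -0.095), and Tldc2 lay below the floor, between 3.74 and 4.14. Stimulated miR-155 cells had 5 of the 11 lower than stimulated control cells by more than 1.5-fold and 1, Dmxl2 (0.75), higher (median -0.35), and unstimulated cells 1 lower (median -0.29). The partners of the pump in acid secretion were higher by more than 1.5-fold in control cells in 7 of 7 cases (median 3.28) and in miR-155 cells in 4 of 7 (median 1.45). Slc9b2, a sodium-proton exchanger, had 4.78 and 4.11, Car2, the carbonic anhydrase that supplies protons, 4.54 and 3.06, Clcn7, the chloride-proton exchanger, 3.43 and 2.10, and Slc4a2, the chloride-bicarbonate exchanger, 3.28 and 1.45. The rest, Snx10 (2.43 and 0.46), Ostm1 (1.75 and 0.47) and Plekhm1 (0.94 and 0.20), fell short of 1.5-fold in miR-155 cells. All 7 partners were lower with miR-155 in stimulated cells by more than 1.5-fold (median -1.76), and 1 of 7 was in unstimulated cells (median -0.47).

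Genes of the mitochondrial ATP synthase catalytic sector and stalk, a rotary enzyme of related build, had a median of 0.34 with stimulation in control cells, with 3 of 7 more than 1.5-fold higher, and of 0.04 in miR-155 cells, with none. For miR-155 against control their median was 0.12 in unstimulated and -0.23 in stimulated cells. Lysosomal enzymes and membrane proteins split, with 7 of 18 higher and 6 lower in control cells (median 0.25) and 3 higher and none lower in miR-155 cells (median 0.04); miR-155 came with medians of -0.31 unstimulated and -0.46 stimulated. The Ragulator and Rag genes, whose products bind the pump at the lysosome, had medians of 0.28 and 0.07 with stimulation and of -0.00 and -0.06 for miR-155 in unstimulated and stimulated cells. Among the MiT/TFE factors, Tfeb was lower with stimulation in both vectors (-1.02 and -0.71), Tfe3 was at -0.36 and -0.54, Mitf at -0.10 and 0.40 and Tfec at 0.16 and 0.83. In unstimulated miR-155 cells Tfec (-1.39) and Mitf (-0.63) were more than 1.5-fold lower than in control cells; in stimulated cells Tfec was (-0.72), and Mitf was at -0.13. The list medians were -0.23 and -0.07 with stimulation, and -0.26 and -0.10 for miR-155. All 9 lists are shown beside each other in the plot of gene lists.

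**Figure D4:**
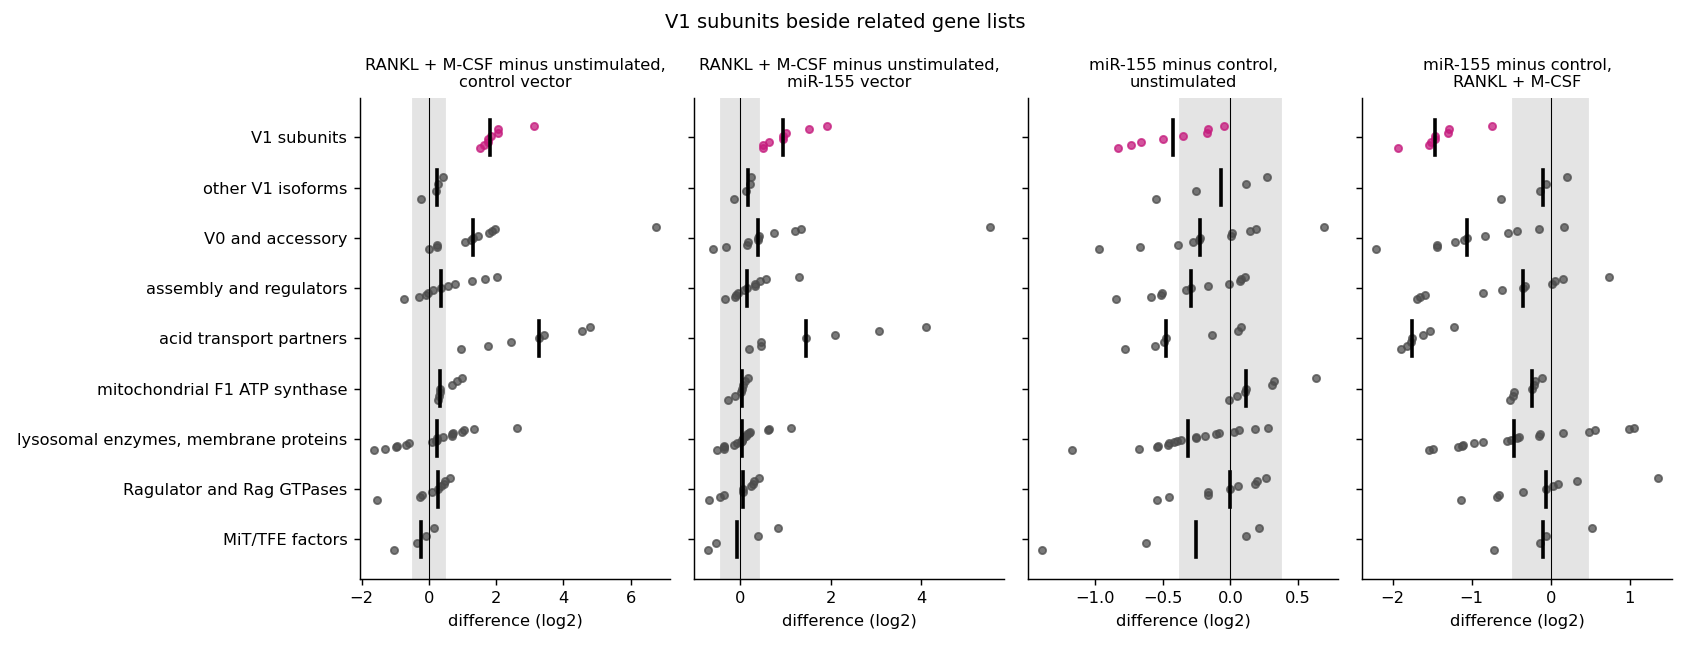
Differences (log2, horizontal axes, which differ in range between panels) of the genes above the floor in each list; points are genes, black bars list medians and the grey band the noise reference. The V1 subunit genes (top row) all lie right of the band with stimulation for both vectors, while the other V1 isoforms lie within it in those panels.

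The genes outside the sector whose 4 values, centred on their own mean, lay nearest to the mean centred profile of the 8 were Pkp2, Fgd6, Cdc42ep2, Actn1, Gnptab, Plcb4, Plpp1, Atp6ap2, Cstb and Gadd45b. Their root mean square distances, over 4 arrays, ran from 0.04 to 0.10 (log2). Among the V1 genes themselves the distance to that profile was 0.04 for Atp6v1g1 and 0.10 for Atp6v1e1, and 0.16 to 0.25 for Atp6v1a, Atp6v1h, Atp6v1f, Atp6v1c1 and Atp6v1b2. It was 0.56 for Atp6v1d. The nearest gene, Pkp2, which encodes the desmosomal protein plakophilin 2, differed by 1.89 and 1.05 with stimulation in control and miR-155 cells. Actn1, which encodes the actin crosslinker alpha-actinin, differed by 2.07 and 1.04, and Gnptab, which encodes part of the enzyme that tags lysosomal hydrolases with mannose 6-phosphate, by 2.18 and 0.86. Atp6ap2 was the only V-ATPase gene among the 10.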

How the data were processed

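Total RNA from 4 RAW 264.7 cultures, 1 a group, was isolated with RNeasy columns, and 100 ng was labelled as biotinylated cRNA, per the labels' protocols. The authors deposited log2 expression for each probe set, made with RMA in Partek, per the submitters' processing notes. Software versions and any build were not given in the sources used here. RMA includes quantile normalization, so a shift shared by all genes would not show. Arrays give no read depth, and their number limits the precision.

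Of 35557 probe sets, 21789 had 1 gene symbol in the platform annotation, 1621 several and 12147 none. Groups follow the sample titles. Differences of log2 values were taken and counted past 1.5-fold and 2-fold beside the share of all genes above the floor; folds are 2 to the power of the difference. limma 3.58.1 (R 4.3.3, with lmFit and eBayes) fitted stimulation and vector as additive terms, with Benjamini-Hochberg at 0.05 over all genes above the floor. The vector term was reported as an addition made after the data were seen. The fit was tested on simulated data first. In that simulation both vectors had the same response, unlike on these arrays, so it checks the code only. Python 3.11.15, pandas 2.3.3, numpy 2.4.6 and matplotlib 3.10.9 were used. Alternatives were normalization between arrays, the probe set rule, the floor, the fold and a limma intensity trend. Members, lists and tests were chosen with earlier results of these data known. All members and the 10 nearest profiles are named. From the V-ATPase, acid transport and MiT/TFE lists, up to 4 genes a comparison are named by absolute difference, as are genes below the floor. Atp6v0a2, Atp6v0a4, Atp6v0e2, Rogdi, Ncoa7 and the macrophage markers named by value were added after their values were seen. Listed genes without a probe set of 1 symbol, such as Atp6v0c, were not analysed here.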

Additional observations from a re-analysis of the deposited data

Results flagged for a closer look

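Lamtor1, a Ragulator subunit that anchors the complex to the lysosome, was at 8.47 and 9.11 (log2) in unstimulated and stimulated control cells and at 8.67 and 7.98 in miR-155 cells. Its difference with stimulation was 0.64 with the control vector and -0.69 with miR-155, opposite in direction, so that the control response exceeded the other by 1.33. This difference was not tested.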

How the results depend on the processing

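Under renewed quantile normalization, centring on the median and cyclic loess, the median of the 8 V1 genes in each of the 5 comparisons moved by less than the SD of the receptor probe sets, and the counts past 1.5-fold stayed the same. Of the 120 single gene values under these 3 settings, none changed sign, and the largest shift was 0.06 (log2). The floor settings cannot change a V1 value, since all 8 genes lie above both floors, and the mean over probe sets can change only Atp6v1f and Atp6v1g1. Quantile normalization without the stimulated control array, chosen after seeing the data, gave medians of 0.98 for stimulation in miR-155 cells and -0.42 for miR-155 in unstimulated cells. With 2-fold in place of 1.5-fold, 3 genes were higher with stimulation in miR-155 cells and 0 were lower with miR-155 in unstimulated cells; the stricter threshold itself makes this difference. For stimulation limma called 0 V1 genes in all 7 alternatives. Over all genes it called 2 with renewed quantile normalization, with centring, with the higher floor and with the intensity trend, 1 with the mean over probe sets and 0 with cyclic loess and without a floor; the cause was not tested. For the vector it called 0 genes in each. No paired analysis was possible because the labels give no replicate numbers and each group has 1 array, so no array could be left out of a group. Where signals lie near background, as for Atp6v1b1, Atp6v1c2, Atp6v1e2 and Atp6v0a4, a difference was not detectable at these levels.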

Other observations

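Rragb, a Rag GTPase picked out after its values were seen, was at 5.74 and 4.19 (log2) in unstimulated and stimulated control cells and at 5.92 and 5.56 in miR-155 cells. Its stimulated control value lay below the floor.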
